A study of Mus musculus with 16 samples.

Results

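The neocortex of unoperated mice was compared between postnatal day 14 (P14) and postnatal day 35 (P35), 2 ages that in the series serve as the age-matched controls of pups operated at P7. The comparison used 4 of the 16 arrays and 2 of the 8 RNA pools, namely 1 array labelled with Cy3 and 1 labelled with Cy5 for each age, and every gene measured on them was included. Per the study's methods the mice were C57BL/6J males, tissue came from the right neocortex rostral to bregma, and 4 animals were combined into each pool. No agent, transgene or surgery was given to either pool, and weaning fell between the 2 ages. The operated pools set beside them came from the right cortex of pups whose left cortex was aspirated at P7, and were collected 1 week later (P14) and 4 weeks later (P35). Because both arrays of a pool carried the same RNA, each age was 1 sample, no test was possible, and every ± below is the SD of the 2 dyes, a technical error that leaves out the spread between animals.

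Between these ages the mouse cortex passes from the end of its growth phase into its mature form. Myelin sheaths are laid down and compacted, fast-spiking interneurons acquire their adult firing and become wrapped in perineuronal nets, the last dividing progenitors decline, and new vessels and their basement membranes stop expanding. Neurons switch off cytoskeletal and adhesion genes of the growing neurite while they refine their synapses.

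Levels are given as scaled log2 signal, that is log2 of the processed intensity minus the 75th percentile of the same array, so that 0 is the level of a probe at that percentile. Differences are P35 minus P14 on this log2 scale. A gene was called when it was at least 2-fold higher, or at least 2-fold lower, with both dyes. Of 15723 genes compared, 161 were called higher (1.02%) and 194 lower (1.23%), and the median difference over all of them was -0.03. Of the called genes, 45.4% were thus higher, against 69.6% (263 higher and 115 lower) when the arrays were not scaled to each other, a change that moved the median of all genes by 0.168. Across genes, which are not independent replicates, the differences of both dyes correlated with r = 0.764, and their disagreement had an SD of 0.294. The dyes were closer for bright genes: r was 0.584 over the 3942 genes with a mean level below -2, and 0.939 over the 4423 genes with a level of 2 and above. Only 2 genes passed the limit in opposite directions with the 2 dyes.

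**Figure D1:**
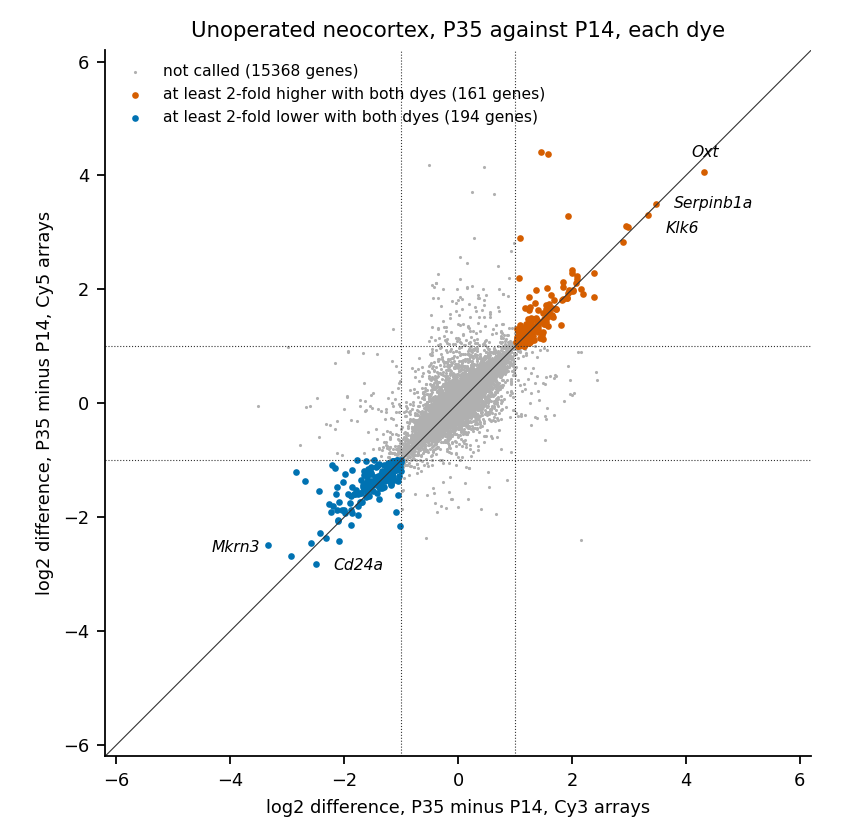
Each point is 1 of the 15723 genes, with the log2 difference P35 minus P14 on the Cy3 arrays on the x axis and on the Cy5 arrays on the y axis, dotted lines at the 2-fold limit and a line of equality. The 161 genes called higher (orange) and the 194 called lower (blue) pass the limit with both dyes by rule, so their place is no measure of dye agreement. Some of them lie off the line, such as Ms4a15 (1.57 and 4.37) and Krtap15 (-2.85 and -1.21).

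One feature of the P35 pool has to be stated before any gene. A probe for Xist, the RNA that coats the inactive X chromosome and marks female cells, was well above background in this pool alone, at -1.63 with Cy3 and -1.78 with Cy5, while on the arrays of the other 7 pools it was never flagged above background. That put it at least 21.0-fold higher than in the P14 pool. By dye the difference was at least 2.97 with Cy3 and 5.81 with Cy5, because each P14 array was held at its lowest signal above background. A second probe for Xist, the brighter one by its mean over all 16 arrays but the dimmer one in this pool, stood at -3.68 and -3.16 at P35 and was at least 3.47-fold higher, which was not a call because the Cy3 difference was 0.92. The Y-linked gene Eif2s3y, a translation initiation factor subunit, was at 2.21 and 2.31 at P14 and at 1.12 and 1.26 at P35, a difference of -1.07 ± 0.03, a call that was lost without scaling. Ddx3y, a Y-linked RNA helicase, went from 1.23 and 1.31 to 0.88 and 0.92 and was not called. Uty, also Y-linked, went by its brighter probe from -2.94 and -2.69 to -3.70 and -3.21 and was not called. Kdm5d was not above background in either pool. Transcripts of Eif2s3y, Ddx3y and Uty were therefore present in both pools, and Xist signal stood beside them in a pool described as male. Its part in the results was not tested.

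The 11 marker lists covered neurons, sex-linked genes and, for the rest, other tissues that a dissection could include, and 2 of 8 genes were called in the one for hypothalamus and basal forebrain. Oxt, the gene of the hormone oxytocin, was at -2.75 and -2.65 at P14 and at 1.57 and 1.41 at P35, a difference of 4.19 ± 0.19 or 18.2-fold, the largest of all genes measured on all 4 arrays. Avp, the gene of vasopressin, was at -4.55 and -4.62 at P14, well above background on 1 of the 2 arrays, and at -1.65 and -1.78 at P35, a difference of 2.87 ± 0.04. Both hormones are made by neurons of the hypothalamus. In the other 7 pools Oxt lay between -3.66 and -1.33 on every array, so the P35 pool stood apart. The remaining 6 members of that list were not called. Over the whole list 5 members lay above 0 and 3 below, with a median of 0.38. The 3 below were the hypothalamic peptide genes Hcrt, Agrp and Pomc, at -0.26, -0.12 and -0.18. The summed level of the list, log2 of its members' summed scaled signals, was 1.5 and 1.56 at P14 and 2.66 and 2.59 at P35. Ependyma, the ciliated lining of the ventricles, had 1 of 7 markers called (Tmem212, 1.37 ± 0.17) and all 7 above 0, with a median of 0.50 and a summed level of 1.65 and 1.65 at P14 and 2.03 and 2.01 at P35. Choroid plexus markers had a median of 0.52 with none of 10 called and a summed level of 0.56 and 0.70 and then 0.98 and 0.95, and olfactory bulb markers had 1 of 8 called (Doc2g, 1.29 ± 0.02), with 2.42 and 2.42 and then 2.42 and 2.38. General neuronal markers, 8 in all, had none called, and those of meninges, striatum, thalamus and blood had none called either. Hippocampus had 1 of 5 called (Lct, -1.24 ± 0.16). How far the tissue outside the neocortex in each pool took part in the differences below was not tested.

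**Figure D2:**
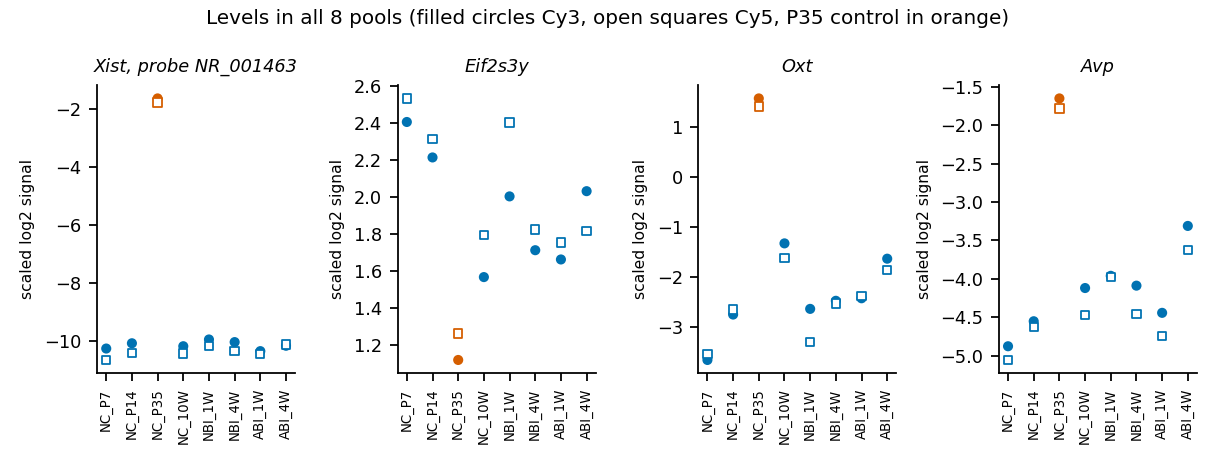
Scaled log2 signal of Xist (the probe for NR_001463), Eif2s3y, Oxt and Avp in all 8 pools, with a circle for the Cy3 array and a square for the Cy5 array. The unoperated P35 pool (orange) is the only one with Xist signal above background, has the lowest Eif2s3y and has the highest Oxt and Avp, at 1.57 and 1.41 for Oxt.

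A comparison without this pool was available from the operated pools, which had shifts of their own in some marker lists. The operated pools of the same ages share no array with the unoperated ones, and the operated P35 pool had no Xist signal above background and Oxt at -2.48 and -2.53. Between their ages 3 choroid plexus markers (Aqp1, Otx2 and Ttr) were called lower, with a median of -0.75 over that list, and 2 olfactory bulb markers (Trh and Cdhr1), with a median of -0.72, against medians of 0.52 and 0.37 in the unoperated pools. The part of these markers in the differences was not tested. In the operated pools 15770 genes were compared, with 150 called higher (0.951%) and 285 lower (1.81%). Over the 15425 genes compared in both pairs, the differences correlated with r = 0.770. Of 158 genes called higher in the unoperated pools and 147 in the operated pools, 97 were shared, which was 61.4% and 66% of each list, and none was called in the opposite direction. Of 188 and 224 called lower, 129 were shared (68.6% and 57.6%), and 1, Gtpbp10, was called in the opposite direction. The unoperated pools all lay in the first row of their chips and the operated ones in the second, so row and surgery cannot be told apart, but both ages of a pair shared a row.

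Among genes well above background and unsaturated on all 4 arrays, the 15 furthest up and the 15 furthest down had dye SDs of 0.01 to 0.37. In the operated pools 12 of the 15 higher genes and 14 of the 15 lower genes were also called in the same direction. The exceptions were Oxt, Lbhd2 and Dlk1 among the higher genes and Meox1, a homeobox gene, among the lower ones.

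After Oxt the largest increases were in Serpinb1a, Klk6 and Etnppl. Serpinb1a, an intracellular inhibitor of serine proteases, was at -2.61 and -2.78 at P14 and at 0.87 and 0.72 at P35, 11.2-fold higher. Klk6, a secreted serine protease made in the brain chiefly by oligodendrocytes, went from -4.26 and -4.23 to -0.93 and -0.92, a 9.98-fold difference. Etnppl, an astrocyte enzyme that breaks down phosphoethanolamine, went from -1.70 and -1.87 to 1.24 on both arrays, 8.15-fold. In these 3 genes the ages were several log2 units apart and the dyes within 0.2 of each other at each age. The operated pools gave 3.0, 3.35 and 3.06 for the same genes, against 3.49, 3.32 and 3.03 here.

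The next genes upward had several kinds of products. Ndrg1, a stress-responsive gene needed for peripheral myelin, was 2.09 ± 0.02 higher. Igfbp6, a secreted binding protein that favours IGF2, was at 2.32 and 2.11 and then at 4.33 and 4.10, a 4.01-fold difference. Tnfaip6, which binds and cross-links hyaluronan, was 1.99 ± 0.04 higher, and Cbln4, a secreted organiser of synapses, 1.94 ± 0.13 higher. The heat shock transcription factor Hsf4 was 2.13 ± 0.37 higher and the proton channel Otop2 1.98 ± 0.20 higher. Mei1, a gene known from meiosis, and LOC547349 were 1.98 ± 0.02 and 1.97 ± 0.04 higher. Lbhd2 (2.14 ± 0.06) and Dlk1 (2.06 ± 0.20), a paternally expressed Notch-like gene, were the members not called in the operated pools, at -0.78 and 0.15 there.

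The largest decreases were in genes of different kinds. Mkrn3, an imprinted gene known as a brake on puberty, was at -0.01 and 0.01 at P14 and at -2.94 and -2.67 at P35, 7.01-fold lower. Cd24a, a surface glycoprotein of young neurons, was at 2.10 and 2.06 and then at -0.47 and -0.40, 5.72-fold lower. Cxadr, an adhesion molecule of the developing brain that also serves as a virus receptor, was at 3.17 and 3.14 and then at 0.85 and 0.77, 5.07-fold lower. Dnmt3a, the enzyme that sets new DNA methylation in neurons, was among the brighter ones, at 4.85 and 4.80 and then at 2.87 and 2.88, a 3.87-fold decrease. The operated pools gave -2.90, -2.83, -2.37 and -1.94 for these genes, in that order.

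The remaining lower genes were of several types. Aplnr, the apelin receptor of vessels, differed by -2.35 ± 0.10, and Pcdh12, an endothelial protocadherin, by -2.01 ± 0.17. Fzd10, a Wnt receptor, differed by -2.09 ± 0.03, and Ppic, a cyclophilin, by -2.09 ± 0.04. The ion channel gene Trpa1 differed by -2.0 ± 0.27, Fam227b by -2.66 ± 0.22, and Slc29a4, a transporter of monoamines, by -1.89 ± 0.05. Marcksl1, Cdk1 and Col26a1 are described with their groups below.

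**Figure D3:**
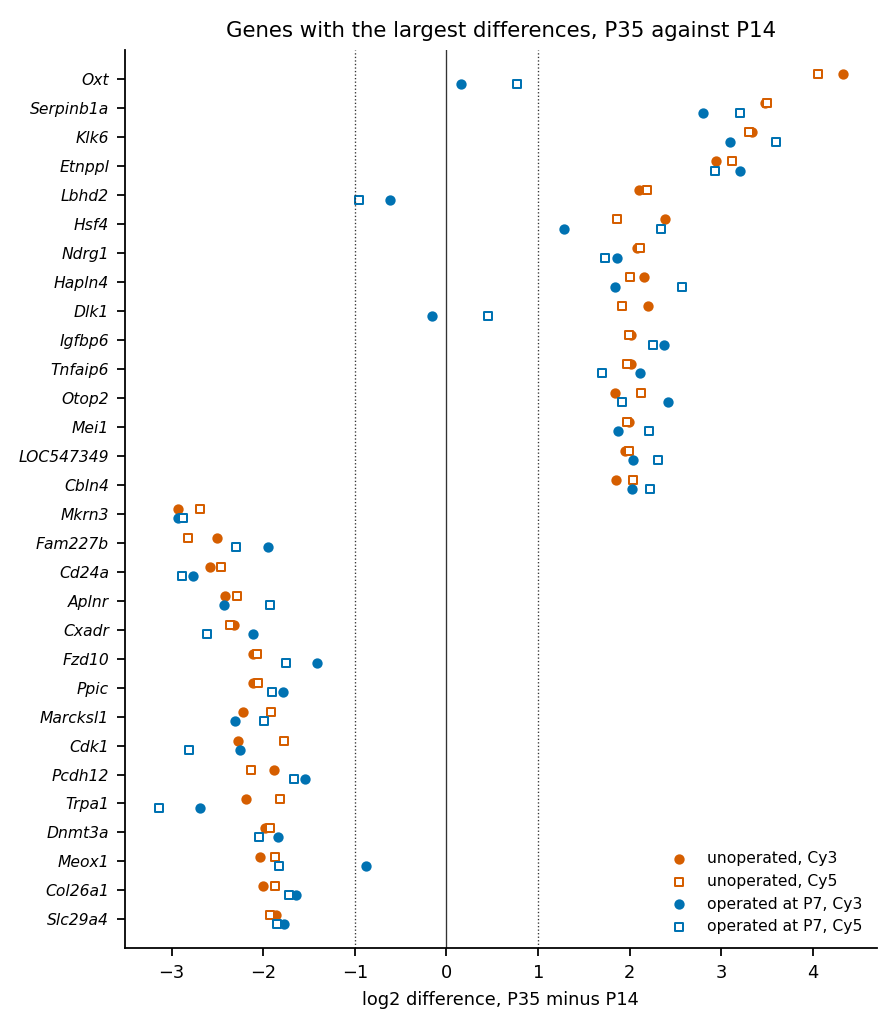
Log2 difference P35 minus P14 for the 15 highest and the 15 lowest genes, orange for the unoperated and blue for the operated pools, circles for Cy3 and open squares for Cy5, with dotted lines at the 2-fold limit. Oxt, Lbhd2 and Dlk1 are the 3 higher genes whose operated values lie inside the limits, and among the lower genes the Cy3 value of Meox1 does.

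A further 7 genes were called higher and 5 lower only as bounds, because they were not well above background on either array of 1 pool. Another 17 higher and 18 lower calls were above background on 1 of the 2 arrays of the pool where they were lower. In these a dim array can be held too, as for Hapln2 below. Among the 7, the highest bounds were for Ms4a15 (at least 7.85-fold higher at P35), Prg4 (at least 6.07-fold), which encodes the lubricating protein of joints, and Syna, an envelope-derived fusion protein of placenta (at least 5.05-fold). By dye, Ms4a15 differed by 1.57 with Cy3 and 4.37 with Cy5, and Prg4 by 1.92 and 3.28. The size and order of these bounds depend in part on each array's lowest signal above background, which was -4.61 on the P14 Cy3 array and -7.59 on the P14 Cy5 array. Only Prg4 and Dlx4 of the 5 highest were also called in the operated pools. Ms4a15 and Dipk2b were too dim on the Cy5 arrays there to be compared. The lower bounds were led by Krtap15 (at least 4.09-fold lower) and C1qtnf6 (at least 3.99-fold), followed by Sprr2g (at least 2.83-fold), Gp2 (at least 2.8-fold) and Tshr (at least 2.36-fold).

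Of the 355 called genes, 43 belonged to the 31 gene lists and 312 to none of them. The called members of the marker lists, such as Oxt and Avp, are counted among the 312. For each list the number called is read against the 1.02% and 1.23% of all genes, and its median against the -0.03 of all genes.

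The lists of myelin genes and of oligodendrocyte progenitors had calls in opposite directions. Of 26 myelin genes, 6 were called higher and none lower, with a median of 0.28. Hapln2, a link protein of the node of Ranvier, differed most, at -5.06 and -4.82 at P14, above background on 1 array, and at -1.62 and -1.73 at P35, a difference of at least 3.04 because the dim P14 array was held at its lowest signal above background. Aspa, which frees acetate for myelin lipids, was at -0.77 and -0.95 and then at 0.64 and 0.69 (1.52 ± 0.17). Anln was 1.46 ± 0.09 higher, Ppp1r14a 1.33 ± 0.09, Opalin, a membrane protein of mature oligodendrocytes, 1.20 ± 0.09, and Trf, the iron carrier transferrin, 1.08 ± 0.06.

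The structural myelin genes were nearly level. Mbp, myelin basic protein, differed by 0.39 ± 0.02, Mog by 0.25 ± 0.02, Cnp by -0.03 ± 0.10 and Mag by -0.23 ± 0.00. Mobp was at 5.01 and 4.90 at P14 and at 4.44 and 4.40 at P35 (-0.53 ± 0.04), and its probes disagreed, since its others gave 0.40 and 0.29. Enzymes of galactolipid synthesis, Gal3st1 and Ugt8a, were below 0 at -0.45 and -0.44. In the operated pools 3 myelin genes were called (Hapln2, Aspa and Anln), and Trf, Opalin and Ppp1r14a were at 0.65, 0.61 and 0.77.

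Genes of oligodendrocyte progenitors and of cells about to myelinate went the other way. Of 15, none was called higher and 2 lower, 14 were below 0 and the median was -0.43. Enpp6, a marker of newly forming oligodendrocytes, was at -0.78 and -0.79 and then at -2.02 and -1.83 (-1.14 ± 0.14). Gpr17, a receptor of the premyelinating stage, was at 4.96 on both arrays and then at 3.93 and 3.84 (-1.08 ± 0.06). Bmp4 differed by -0.97 and Pdgfra, the growth factor receptor of progenitors, by -0.71, while the lineage transcription factors Sox10, Olig1 and Olig2 lay within 0.2 of 0. Both called genes were also called in the operated pools, at -1.28 and -1.31, but neither was called without scaling or with the authors' value table. Under quantile scaling, and under normexp background correction, 1 gene of the list was called lower. These are tissue homogenates, in which fewer cells of a type and less RNA per cell cannot be told apart.

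Genes of the immature neuron were lower as a list, with 4 of 17 called lower, none higher, 16 of 16 measured differences below 0 and a median of -0.61. Besides Cd24a, Marcksl1, an actin-binding protein of growing neurites, was at 4.92 and 4.75 and then at 2.69 and 2.84 (4.2-fold lower). Dpysl3, a collapsin response mediator, was at 3.88 and 3.83 and then at 2.27 and 2.17 (-1.63 ± 0.03). Dcx, the microtubule protein doublecortin of migrating neurons, was at 0.91 and 0.94 and then at -0.34 and -0.29 (-1.24 ± 0.02). All 4 called genes were also called in the operated pools. Growth-cone gene Gap43 and stathmin Stmn2 were at -0.42 and -0.29 and were partly saturated. Of 20 tubulins and neurofilaments 1 was called lower, Tubb6 (-1.86 ± 0.15), and 6 were saturated in both pools.

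Of 32 cell cycle genes compared, 8 were called lower and none higher, 28 lay below 0 and the median was -0.71. The 8 calls became 3 without scaling, 4 with the authors' value table and 1 under normexp background correction. Cdk1, the kinase that drives entry into mitosis, was at -2.61 and -2.59 and then at -4.88 and -4.36 (-2.03 ± 0.35). Its partner cyclin Ccnb1 differed by -1.31 ± 0.19, the spindle proteins Nusap1 and Prc1 by -1.45 ± 0.28 and -1.07 ± 0.08, and Birc5, of the chromosomal passenger complex, by -1.09 ± 0.01. Mki67, the antigen of cycling cells, was at -0.69 and -0.64 and then at -1.86 and -1.85, and Top2a, the topoisomerase that untangles chromosomes, at -3.73 and -3.55 and then at -4.80 and -4.71, above background on 1 of the 2 P35 arrays. Of the genes of DNA synthesis, Tk1, thymidine kinase, was called (-1.25) and Rrm2 was at -1.03 and just missed with 1 dye, while Pcna was at -0.18 and the helicase subunits Mcm2 to Mcm7 between -0.62 and 0.05. Ccnd1, a cyclin of the first gap phase, was at 0.54. All 8 called genes were also called lower in the operated pools, where 10 of the list were.

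The promoters of the called cell cycle genes were looked at for the letters TTTGAA, the core of the cell cycle genes homology region, and CCAAT, the box bound by the factor NF-Y, within 250 bases before each RefSeq start and on both strands. TTTGAA was in 4 of the 8 called members, in 5 of the 18 other members with a promoter and in 18.3% of all 27025 genes with one. CCAAT was in 5 of the 8 called, in 17 of the 18 others and in 37.5% of all genes. A match describes letters only. The stretch just before the start is shown for 3 called genes that hold both, on the strand of the gene, with each match in capitals (TTCAAA and ATTGG are the same motifs on the opposite strand). The sequences are RefSeq promoters of build GRCm38.p6.
Cdk1, chr10:69352913-69353012, minus strand: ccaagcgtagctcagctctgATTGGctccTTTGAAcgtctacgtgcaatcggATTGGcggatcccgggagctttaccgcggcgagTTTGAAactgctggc
Top2a, chr11:99024190-99024289, minus strand: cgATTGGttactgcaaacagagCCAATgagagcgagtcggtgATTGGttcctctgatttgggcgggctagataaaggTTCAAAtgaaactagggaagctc
Prc1, chr7:80294396-80294475, plus strand: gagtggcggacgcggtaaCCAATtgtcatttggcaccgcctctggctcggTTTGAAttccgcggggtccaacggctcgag

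Collagens and basement membrane genes had the lowest median of the 31 lists, -0.99, with 9 of 20 called lower, none higher and all 19 measured differences below 0. Col3a1, a fibrillar collagen, was at 0.53 and 0.40 and then at -1.35 and -1.23 (3.37-fold lower). Col1a1 was at 1.05 and 1.1 and then at -0.27 and -0.25 (2.52-fold lower). The nidogens, which link laminin to collagen IV, were at 1.52 and 1.54 and then at -0.15 and 0.07 for Nid1 and differed by -1.66 ± 0.19 for Nid2. Col4a1, the main collagen of vessel basement membranes, differed by -1.21 ± 0.01, Col18a1 by -1.22 ± 0.06, Postn, periostin, by -1.57 ± 0.11, Col5a2, above background on 1 of the 2 P35 arrays, by -1.65 ± 0.80 and Col5a1 by -1.03 ± 0.04. Fn1 (-0.97), Col1a2 (-0.96) and Serpinh1 (-0.99), the collagen chaperone, stood just inside the limit. The operated pools had the same count, 9 lower, and a median of -0.98. Over every collagen gene with a symbol of the form Col1a1, a family taken after its values were seen, 11 of 34 were lower, Col26a1 the most, and 1 was higher.

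Of 18 genes of endothelium and vessel sprouting 2 were called lower. Angpt2, a ligand of sprouting vessels, was at -0.73 and -0.81 and then at -2.30 and -2.31, and was at -0.69 in the operated pools, not called. Esm1, a marker of endothelial tip cells, differed by -1.59 ± 0.80 with the dyes apart at P14 (-3.67 and -2.55). Mfsd2a, the lipid transporter of the blood-brain barrier, was at -0.97, the tight junction gene Cldn5 at -0.40, and Flt1, a VEGF receptor, at 0.63.

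Fast-spiking interneurons carry the potassium channel Kcnc1 and the calcium-binding protein parvalbumin. Of 18 interneuron genes Kcnc1 was the only 1 called, at 0.92 and 1.00 and then at 2.32 and 2.36 (1.38 ± 0.03), but its other probes gave 0.02 and 0.83 and the operated pools 0.58. Pvalb was at 3.40 and 3.34 and then at 4.30 and 4.32 (0.94 ± 0.05), just inside the limit, with a second probe at 1.09. Cort, cortistatin, was at -0.84, and the subclass markers Sst, Vip and Npy lay within 0.2 of 0. Among 32 voltage-gated channels, median 0.22, Kcnc1 was likewise the only 1 called, and the sodium channel subunit Scn4b was at 0.71. Among 24 synaptic vesicle genes Vamp1, the synaptobrevin of fast terminals, was the only 1 called (1.30 ± 0.02, and 1.33 in the operated pools). Of these 24 genes, 6 were saturated in both pools.

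Of 12 genes of perineuronal nets and brain matrix 2 were called higher and 1 lower. Hapln4, a link protein of inhibitory synapses and nets, was at -2.13 and -1.86 and then at 0.03 and 0.14 (4.23-fold higher), and Hapln2 is given above. Hapln1, the link protein of the juvenile matrix as well as of nets, was at 1.61 and 1.6 and then at 0.45 and 0.37 (-1.19 ± 0.04). All 3 were called in the same direction in the operated pools. The proteoglycan Ncan was at -0.77, while Acan, aggrecan, and Vcan, versican, were at 0.00 and 0.03.

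Receptors, guidance and activity genes had no calls. None of 26 glutamate receptor genes was called, and the NMDA receptor subunits Grin2a and Grin2b, known for an exchange in early life, were at -0.12 and -0.23. None of 21 genes of GABA signalling was called, with Gad1, which makes GABA, at 0.47, the chloride importer Slc12a2 at 0.01 and the exporter Slc12a5 saturated in both pools. None of 43 axon guidance genes was called, median -0.19, nor any of 23 immediate early genes, 17 genes of the postsynaptic density or 12 of neurotrophins. Of the postsynaptic density genes 4 were saturated in both pools. The medians of the glutamate and GABA lists were -0.12 and -0.07, which relative to the median of all genes was -0.09 and -0.04 with or without scaling.

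Of 22 mature astrocyte genes and 20 microglia genes none was called, with 2 and 1 of them saturated in both pools. Fabp7, the fatty acid-binding protein of radial glia, was the only 1 of 12 radial glia genes called, at 4.11 and 4.09 and then at 2.80 and 2.84 (-1.28 ± 0.04). None of 25 genes of cholesterol synthesis and handling was called, but 23 lay below 0, with a median of -0.35, among them the synthesis enzyme Sqle (-0.77), and Cyp46a1, the neuronal enzyme that removes cholesterol, was the only 1 above 0, at 0.20. None of 26 genes of ketone, lactate and glucose use was called, and 7 of them were saturated in both pools. The ketone-handling enzymes Bdh1 and Acat1 were at -0.96 and -0.91. None of 9 thyroid hormone genes was called, with a median of -0.51.

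Other lists held few calls. Of 10 DNA methylation genes Dnmt3a was the only 1 called, and Uhrf1, which guides maintenance methylation, was at -0.93. Of 23 growth and imprinted genes Igfbp6 and Dlk1 were called higher and Igf1, the growth factor, lower, at 0.08 and 0.06 and then at -1.1 and -1.03 with other probes at -0.40, -0.57 and -0.87. None was called among 20 respiratory chain genes, 21 neuronal RNA-binding proteins, 23 cortical layer transcription factors, 16 clock genes and 12 housekeeping genes. Of these, 5 respiratory chain genes, 1 layer transcription factor and 7 housekeeping genes were saturated in both pools.

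**Figure D4:**
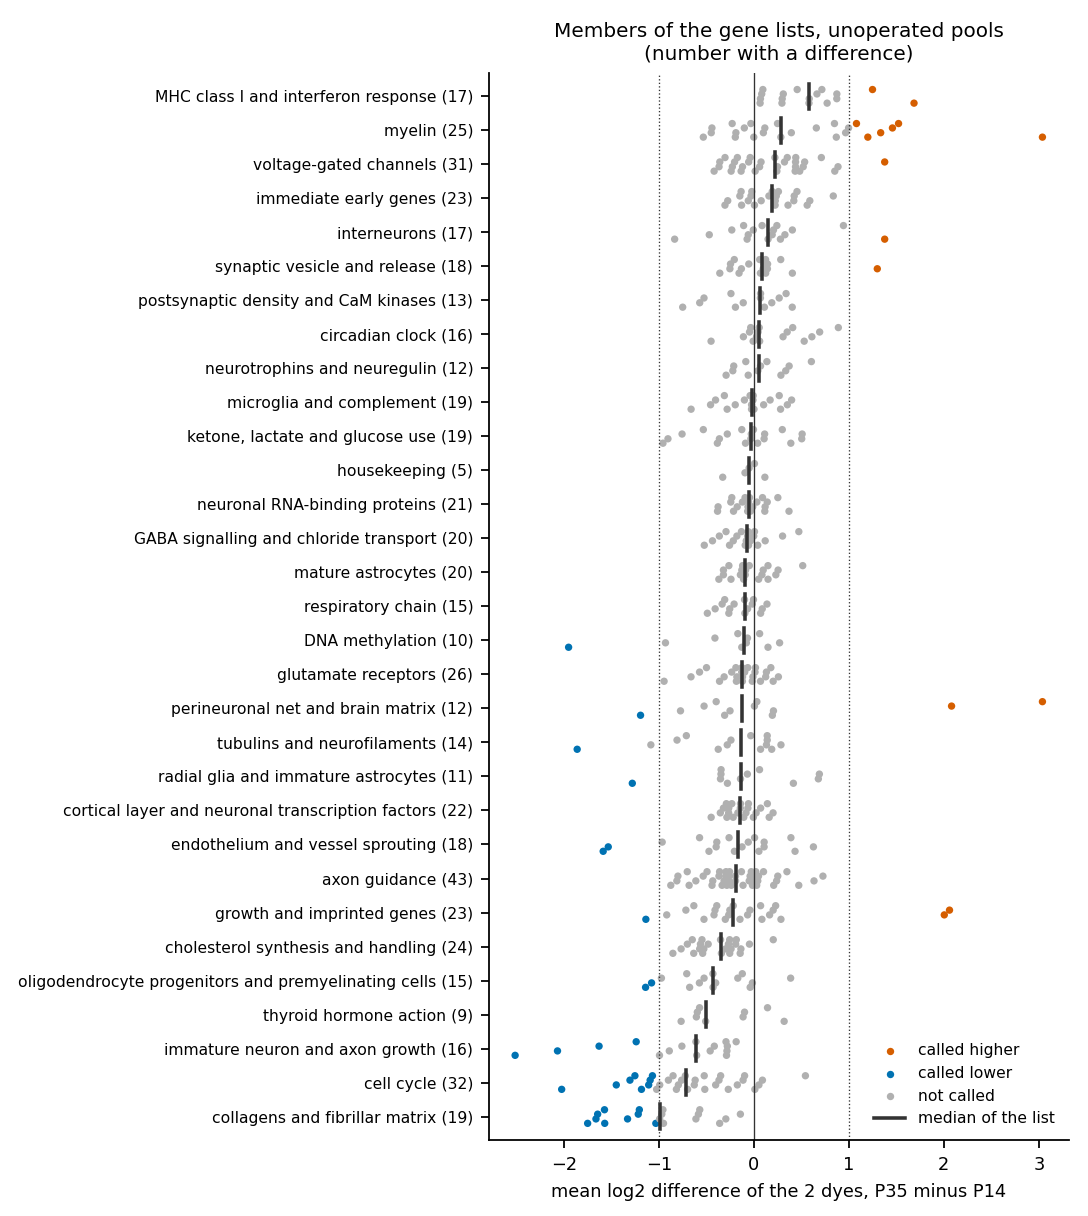
Each point is a member of 1 of the gene lists, placed by its mean log2 difference P35 minus P14 over both dyes, orange if called higher, blue if called lower and grey if not called, with a bar at the list's median and dotted lines at the 2-fold limit. Medians run from 0.58 for MHC class I and interferon genes at the top to -0.99 for collagens and fibrillar matrix at the bottom.

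Genes of MHC class I and the interferon response had the highest median, 0.58, with 17 of 17 above 0 and 2 called. Ifit1, an interferon-induced sensor of foreign RNA, was at -4.17 and -4.21 and then at -2.44 and -2.56 (3.22-fold higher). Ifit3 was at -1.49 and -1.6 and then at -0.29 and -0.30 (2.38-fold higher). The class I heavy chain H2-K1 was at 0.72, the peptide transporter Tap2 at 0.77 and the light chain B2m at 0.31. In the operated pools none of the list was called, the median was 0.38, and Ifit1 and Ifit3 were at -0.01 and 0.82. Ifit1 and Ifit3 were thus both called in the unoperated pools only, and the difference between the pairs was not tested. Under normexp background correction 1 gene of the list was called. A family of class I and related histocompatibility genes was taken after its values were seen. Its symbols are H2- followed by D, K, L, Q, T or M and a number. Among the 15 compared, H2-Q10, H2-Q2 and H2-T23 were called higher, and all 3 were called higher in the operated pools too.

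The core of the interferon-stimulated response element, which is GAAA, any 2 bases and GAAA again, was in the promoters of both called genes, in 5 of the 12 other members with a promoter and in 3.46% of all genes, searched as above. The part of each promoter that holds it is shown on the strand of the gene, which for both is the plus strand, and the motif there reads on the opposite strand, in capitals.
Ifit1, chr19:34640759-34640888: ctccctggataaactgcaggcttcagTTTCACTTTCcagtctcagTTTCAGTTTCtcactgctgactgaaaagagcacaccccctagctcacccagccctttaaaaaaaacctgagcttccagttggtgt
Ifit3, chr19:34583359-34583528: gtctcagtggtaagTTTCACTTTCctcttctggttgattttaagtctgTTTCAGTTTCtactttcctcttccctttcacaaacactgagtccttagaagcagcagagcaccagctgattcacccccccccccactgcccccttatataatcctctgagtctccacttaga

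Outside the lists the glutathione S-transferases, enzymes that conjugate glutathione to reactive compounds, were taken after their values were seen. Of 18 compared, 5 were called higher and none lower (Gstm1, Gstm3, Gstm4, Gstt1 and Gstt3), with a median of 0.36, and 4 were called in the operated pools. Close relatives in this family may bind each other's probes. By contrast 2 of 223 olfactory receptors were called, both higher, which was 0.897% against 1.02% of all genes called higher. None of them was called lower, against 1.23% of all genes. Of 57 vomeronasal receptors 2 were called, both higher (3.51%).

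The other unoperated ages placed the interval within a longer course. Between P7 and P14, 15463 genes were compared, with 683 higher (4.42%, of which 80 were bounds) and 564 lower (3.65%, of which 26 were bounds). Between P35 and 10 weeks, 16256 genes were compared, with 289 higher (1.78%, of which 85 were bounds) and 19 lower (0.117%). A further 85 of those 289 were above background on 1 of the 2 P35 arrays. These intervals share pools with the one described here, so only levels are set side by side. Dcx had mean levels of 4.14, 0.93, -0.32 and -0.47 at P7, P14, P35 and 10 weeks, so that most of its decrease came before P14. Cd24a was at 4.81, 2.08, -0.43 and -1.32, with similar steps in the first intervals. Dnmt3a and Col3a1 were nearly level from P7 to P14, at 4.67 and 4.82 and at 0.65 and 0.46, and were lower at P35 (2.87 and -1.29) and at 10 weeks (2.50 and -1.74).

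Of the higher genes, Igfbp6 was at -0.69, 2.21, 4.22 and 4.52, and Vamp1 at -0.38, 1.85, 3.15 and 3.40. Trf was at 1.30, 4.17, 5.25 and 5.0. Gpr17 had its highest mean level at P14, at 4.37, 4.96, 3.89 and 3.09, and so did Enpp6. Oxt was at -3.60, -2.70, 1.49 and -1.47 and Lbhd2 at -1.56, -2.47, -0.33 and -1.12, and for both the P35 pool was the highest of the 4.

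**Figure D5:**
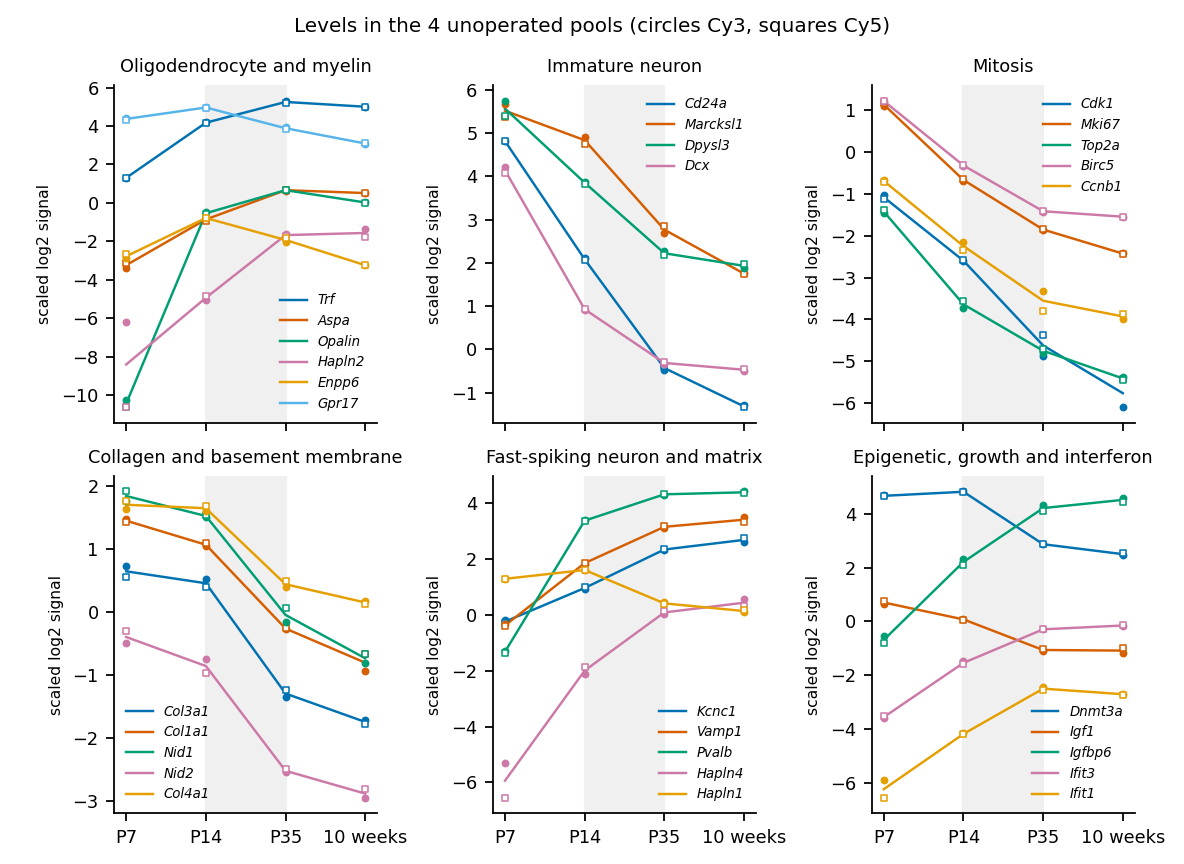
Scaled log2 signal in the 4 unoperated pools at P7, P14, P35 and 10 weeks, drawn at equal steps, with circles for Cy3, squares for Cy5, lines through their means and the P14 to P35 interval shaded. Most immature neuron and mitosis genes are lower at every later age, the collagen and basement membrane genes differ little before P14 and are lower at P35, and Gpr17 and Enpp6 are highest at P14.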

How the data were processed

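The arrays were Agilent 8 × 60K mouse arrays, scanned and extracted by the authors with Agilent Feature Extraction 11.0.1.1, as named in the submitters' processing notes. The deposited intensity values used are the processed signals of the labelled channel, which the authors' software had background-subtracted and spatially detrended but not scaled between arrays or dyes. The deposited flag columns (values of other kinds, 0 or 1) marked spots well above background, saturated or outlying. The headers name the mm9 build, and no coordinate was taken from them.

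Control and outlier spots were removed, signals floored at 1, log2 taken, each array's 75th percentile subtracted and spots of a probe then averaged with Python 3.11.15, numpy 2.4.6 and pandas 2.3.3. Probes were named by RefSeq accession through a GRCm38.p6 gene table: 26582 of 55681 probes matched 1 gene, 20145 genes in all, each represented by its brightest probe over the 16 arrays. Differences were taken within each dye. A gene was compared if both arrays of either pool flagged it as well above background. An array where it was not was held at the higher of its own signal and the lowest signal well above background there, giving bounds. Genes saturated in both pools got no fold (272 genes). On the 4 arrays 60.2% to 71.7% of spots were well above background and 1.18% to 1.59% saturated, and the number of arrays limits the precision.

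Named genes were the 15 furthest in each direction among genes measured and unsaturated on all 4 arrays, the 5 largest bounds in each direction, and list members. The bounds were taken among genes not above background on either array of 1 pool. The members and lists were chosen with earlier results of these data known. No test was run, since each age is 1 pool. The code was tested on simulated data. Background correction with R 4.3.3 and limma 3.58.1 was 1 of the alternatives. Results for some genes are not reported here.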

Additional observations from a re-analysis of the deposited data

Results flagged for a closer look

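In 4 genes called between P14 and P35 in the unoperated pools, both dyes of the operated pools moved the opposite way, and these differences were not tested. Lbhd2 differed by 2.14 in the unoperated pools and by -0.61 and -0.95 with the 2 dyes of the operated pools. Syna differed by 2.34, a bound, against -0.95 and -0.13. Avp differed by 2.87 against -0.13 and -0.48. Gtpbp10 differed by -1.62 (-1.99 and -1.25 by dye) against 1.62 and 1.79. The search covered 82 genes, and those not compared in the operated pools were skipped. Gtpbp10 was included only because its calls were opposite, so these counts give no rate.

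The probe for the Xist transcript NR_001463 is not the brightest of its gene and so stood outside the comparison by gene. It differed by at least 4.39 on the log2 scale between the unoperated P35 and P14 pools, with signal above background in that P35 pool alone.

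In the channel with no labelled RNA, 0.83% to 1.17% of spots were flagged well above background on the 4 arrays. That channel entered no comparison.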

How the results depend on the processing

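The main counts were 161 genes higher and 194 lower at P35. They became 263 and 115 without scaling between arrays, 266 and 119 with the authors' value table, 568 and 651 at 1.5-fold, 568 and 1216 at the limits of 1.5-fold higher and 0.75-fold, 12 and 9 at 4-fold, 659 and 339 with no filter and no floor for dim probes, and 320 and 316 when probes were counted in place of genes. Normexp correction of the median signals, an alternative chosen after seeing the data because the planned one on mean signals was not run for want of that column, gave 112 and 91. Leaving out the Cy5 or the Cy3 arrays gave 265 to 566 higher and 340 to 417 lower. Median scaling (154 and 206), quantile scaling (161 and 182), outlier spots kept (156 and 202), the mean of a gene's probes (152 and 184), the mean of both dyes (238 and 257) and all 4 arrays above background (137 and 171) stayed within 1.5 times. The operated pools of the same ages, also added after seeing the data, gave 150 and 285.

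The 30 genes with the largest changes on all 4 arrays kept their calls under every scaling, with the value table and with normexp. They also pass with either dye alone, but a call already requires both dyes, so that setting could not lose them. Of the 42 list medians, 16 had the other sign without scaling, those of tubulins, glutamate receptors, GABA signalling, perineuronal net, mature astrocytes, radial glia, microglia, endothelium, ketone and glucose use, respiratory chain, DNA methylation, RNA-binding proteins, layer transcription factors, housekeeping, neuron and blood, all of them because every gene shifted alike, so that their medians relative to all genes stayed the same. The sign differed for 1 under median scaling, 4 under quantile scaling and 2 under normexp. Some calls in the lists were lost. The 9 collagen calls became 7 without scaling and 6 under normexp, the 2 endothelium calls became 1, and Hapln1, Igf1, Lct, Eif2s3y, Enpp6 and Gpr17 were not called without scaling. Under normexp Tmem212, Doc2g, Igf1 and Lct were not called. There the 6 myelin calls became 5, and the 2 calls each of the progenitor and the interferon lists became 1. No paired analysis was possible because the replicate numbers name the dyes of 1 RNA pool and no test was run. Signal over background limits dim genes: the SD of the dye disagreement was 0.537 below a level of -2 and 0.104 at 2 and above.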
